A study of Homo sapiens with 12 samples.

Results

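The 9 genes INHBA, INHBB, FST, FSTL3, TGFB1, TGFB2, TGFBR2, SMAD7 and BAMBI of the activin and TGF-beta pathway were followed by symbol through a table of gene counts, across 4 treatment groups of 786-O cells. They are 9 of the 17085 genes in the table and were selected on their differences between these same groups, so their values, and whether they passed a threshold in the fit across all genes, are given as a description and not as evidence. The ligand genes are INHBA, INHBB, TGFB1 and TGFB2, the secreted antagonists are FST and FSTL3, the receptor is TGFBR2, and the inhibitors of signalling are SMAD7 and BAMBI. Expression was high enough for a fit in 8 of the 9, and FST did not pass the filter on low counts.

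786-O is an established human renal carcinoma cell line, labelled as wild type in every group. RNA was sequenced after 24 h from 3 libraries per group. Control cells received the solvent DMSO, and the other groups received 5 µM everolimus, an inhibitor of the kinase mTOR, 1.5 µM SGI-1027, which inhibits DNA methyltransferases, or both drugs at these doses (the combination group). The protocol text for the group with everolimus alone gives 10 µM, while its sample records and the study's methods give 5 µM. If the protocol text is right, the combination and everolimus alone differ in everolimus dose too. Comparisons of these 2 groups, and with the sum of the single drugs, would then include that difference in dose. The records do not say if replicate libraries stem from separate cultures, so the SDs, standard errors and p-values cover the spread between these libraries, which may be technical.

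Activins are secreted dimers of inhibin beta subunits, and INHBA and INHBB encode the beta A and beta B subunits. They bind activin type II receptors and, through a type I receptor, lead to phosphorylation of SMAD2 and SMAD3. TGF-beta ligands reach the same SMADs through TGFBR2 and TGFBR1, after release from a latent complex that LTBP proteins anchor in the matrix and that integrins open. Bone morphogenetic proteins (BMPs) act mainly through SMAD1, SMAD5 and SMAD9. FST and FSTL3 sequester activins, SMAD7 blocks type I receptors and is itself induced by the pathway, and BAMBI is a receptor-like protein without a kinase domain that dampens the signal.

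The 2 ligand pairs whose members had unlike values in these libraries are shown with the bases before their transcription starts. CpG dinucleotides are marked since SGI-1027 targets the enzymes that methylate them. The members of each pair were unlike with everolimus alone too, and a link of CpG content to their values was not tested. The sequences are RefSeq promoters on GRCh38.p14, written 5′ to 3′ on the gene's own strand, with CpG dinucleotides in capitals. INHBA lies on chr7:41703109-41703340 (minus strand), leaving out the bases nearest the start, where GENCODE v29 annotates an INHBA exon. INHBB lies on chr2:120345886-120346135 (plus strand), TGFB1 on chr19:41353923-41354172 (minus strand) and TGFB2 on chr1:218345086-218345335 (plus strand). The TGFB2 stretch overlaps an exon of its antisense gene TGFB2-AS1.
INHBA: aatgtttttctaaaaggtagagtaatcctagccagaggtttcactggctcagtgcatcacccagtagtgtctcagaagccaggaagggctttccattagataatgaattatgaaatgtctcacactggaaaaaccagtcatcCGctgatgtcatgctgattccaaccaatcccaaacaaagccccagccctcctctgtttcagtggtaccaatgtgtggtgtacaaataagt
INHBB: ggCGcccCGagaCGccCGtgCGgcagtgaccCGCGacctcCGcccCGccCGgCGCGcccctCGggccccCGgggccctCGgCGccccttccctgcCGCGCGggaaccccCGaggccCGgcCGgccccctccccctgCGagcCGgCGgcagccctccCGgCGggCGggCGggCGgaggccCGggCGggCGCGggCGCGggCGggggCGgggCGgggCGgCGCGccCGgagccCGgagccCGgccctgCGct
TGFB1: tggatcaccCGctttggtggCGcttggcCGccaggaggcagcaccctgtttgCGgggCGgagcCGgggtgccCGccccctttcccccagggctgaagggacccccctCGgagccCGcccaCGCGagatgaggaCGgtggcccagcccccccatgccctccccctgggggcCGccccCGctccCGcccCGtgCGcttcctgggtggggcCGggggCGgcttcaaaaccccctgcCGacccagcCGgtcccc
TGFB2: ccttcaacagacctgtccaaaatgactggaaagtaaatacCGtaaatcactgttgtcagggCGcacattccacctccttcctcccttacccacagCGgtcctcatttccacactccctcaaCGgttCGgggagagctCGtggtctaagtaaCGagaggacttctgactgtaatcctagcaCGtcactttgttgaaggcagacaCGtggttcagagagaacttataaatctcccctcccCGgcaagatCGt

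In the full 250 bases before the start, the INHBA promoter held 1 CpG and the INHBB promoter 46, against a median of 11 over 35116 RefSeq promoter windows of this length. Fewer CpGs than in INHBA were found in 6.06% of those windows, and fewer than in INHBB in 99.6%. TGFB1 held 21 CpGs and TGFB2 held 11, with fewer in 69.8% and 49.7% of the windows. Methylation was not measured in these libraries.

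A set of 6 motifs was searched on both strands of the windows. The core promoter element spelled TATAAA lay 29 bases before the start in TGFB2 and FSTL3, 11 bases before it in INHBA and 35 bases before it in a window of SMAD7, and 10.7% of all windows hold it. CAGAC, the short element that SMAD3 and SMAD4 can bind, occurred in TGFB2 at 243 and 53 bases before the start, in BAMBI at 189 and 140, and in SMAD7 at 193 in one window and at 217 and 128 in another, as in 38% of all windows. Its palindrome GTCTAGAC was in none of the 12 windows of the 9 genes and in 0.182% of all windows. The GC box GGGCGG, found in 42.6% of all windows, occurred 10 times in INHBB, 6 in TGFB1, 4 each in FSTL3 and BAMBI, and 2 each in FST and a window of TGFBR2. Also searched were the AP-1 site TGANTCA (in the FST window and 6.57% of all) and the cyclic AMP element TGACGTCA (in no window of the 9 genes and 1.65% of all). The SMAD7 window with CAGAC at 217 and 128 lies wholly within SMAD7 exons annotated in GENCODE v29. Exons of the same gene also overlap part of the windows of INHBA, FST, FSTL3, BAMBI and a window of TGFBR2. Some matches there may thus lie in exons. These matches describe letters in a short window and say nothing about binding.

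Each library held between 37046231 and 41516976 counts. Values are normalised CPM, which are counts scaled to library size (CPM) and by TMM factors (0.9895 to 1.012), and fold changes are on the log2 scale with standard errors. Markers of renal carcinoma cells were high, with PAX8 at 317 to 488 CPM, KRT8 at 919 to 1239 CPM and VIM at 5796 to 7464 CPM. The blood markers PTPRC, CD3E and LYZ had 2, 1 and 7 counts in all 12 libraries together, the endothelial markers CDH5 and PECAM1 had 11 and 77, and EPCAM was at 0.894 to 1.57 CPM. Within groups, counts of library pairs differed by a chi-square of 3.04 to 5.46 per gene, except for pairs with DMSO replicate 1 (10.1 and 12.9) or SGI-1027 replicate 3 (16.1 and 16.4). These 2 libraries stood apart from the rest of their groups. The TGFB1 fold changes, which rest on them, are given with and without them. Most other values, such as the FPKM shares and sums of TGFB1, TGFB2 and TGFB3, are given only with them. In RNA from whole cultures, fewer expressing cells and less RNA per cell cannot be told apart. The paper reports that both drugs together, at the doses of the sample records, raised lactate dehydrogenase release from 786-O cells. Neither drug alone did so, and the rise came earlier than the RNA sampling here. The paper proposes early damage to the cell membrane. Combination libraries may thus hold RNA of dying or surviving cells, and the part of cell death in their values was not tested. Differences from the sum of the single drugs share this limit.

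INHBA, the gene of the activin A subunit, was higher in each treated group and highest with both drugs. Its libraries read 81.6, 87.4 and 93.3 CPM with DMSO, 172, 174 and 178 with everolimus, 228, 240.3 and 229.7 with SGI-1027, and 306, 318 and 319 with the combination. No library of any group overlapped another group, and the order was DMSO, everolimus, SGI-1027, combination. The means were 87.4 ± 5.83, 174.8 ± 2.96, 232 ± 6.82 and 315 ± 7.30 CPM (SD, n = 3). Against DMSO these were log2 differences of 0.999 ± 0.045 with everolimus, 1.41 ± 0.05 with SGI-1027 and 1.85 ± 0.05 under both drugs (± SE), or 3.598-fold for the combination. The single-drug values add to 2.41, so the combination lay 0.56 ± 0.06 below their sum on the log2 scale while exceeding either drug alone.

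INHBB, the gene of the activin B subunit, did not follow INHBA. It read 29.3, 29.5 and 28.7 CPM with DMSO, 22.5, 21.3 and 21.8 with everolimus, 27.1, 28.7 and 26.7 with SGI-1027, and 21.4, 20.3 and 20.6 with the combination. Both groups that received everolimus lay below both groups that did not, whereas SGI-1027 overlapped DMSO and the combination overlapped everolimus. The log2 differences from DMSO were -0.42 ± 0.06 with everolimus, -0.08 ± 0.05 with SGI-1027 and -0.49 ± 0.06 under both drugs. The difference from the sum of the single drugs was 0.01 ± 0.08, and its sign turned in 6 of 21 alternative settings.

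The balance between the 2 subunit transcripts differed between groups. Per length, as FPKM (fragments scaled by gene length and library size), INHBA exceeded INHBB 1.19 ± 0.0928 times with DMSO, 3.16 ± 0.116 times with everolimus, 3.34 ± 0.0536 times with SGI-1027 and 5.99 ± 0.294 times under both drugs (SD, n = 3). The DMSO libraries spanned 1.10 to 1.29, and the combination libraries 5.65 to 6.19. Everolimus (3.03 to 3.23) and SGI-1027 (3.31 to 3.40) lay next to each other without overlap. The level of this ratio rests on the lengths in the deposited FPKM, 8111 bases for INHBA and 3206 for INHBB. Their annotation is not given, which limits all FPKM comparisons between genes below.

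The antagonist FSTL3, an activin-binding glycoprotein, was slightly higher in each treated group. It read 123, 115 and 116 CPM with DMSO, 144, 145 and 140.4 with everolimus, 131, 139 and 133 with SGI-1027, and 133, 134 and 135 with the combination. Each treated group lay above DMSO, and SGI-1027 and the combination overlapped. The log2 differences from DMSO were 0.27, 0.19 and 0.18 in that order, each with an SE of 0.04. FST, the gene of follistatin, was close to undetected, with 6 counts in the 12 libraries together. Its counts were 0, 2 and 1 with DMSO, 0, 0 and 1 with everolimus, 0, 0 and 1 with SGI-1027, and 0, 1 and 0 with the combination. All were below the 3 counts that a reading of 0 still allows, which is 0.0729 to 0.0813 CPM per library, so no fold is given.

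Set against FST and FSTL3 together, the INHBA and INHBB transcripts amounted to 0.421 ± 0.0268 of the antagonist FPKM with DMSO, 0.497 ± 0.0133 with everolimus, 0.692 ± 0.00218 with SGI-1027 and 0.846 ± 0.00744 under both drugs (SD, n = 3). The groups did not overlap in this ratio. It compares transcripts and not secreted proteins.

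**Figure D1:**
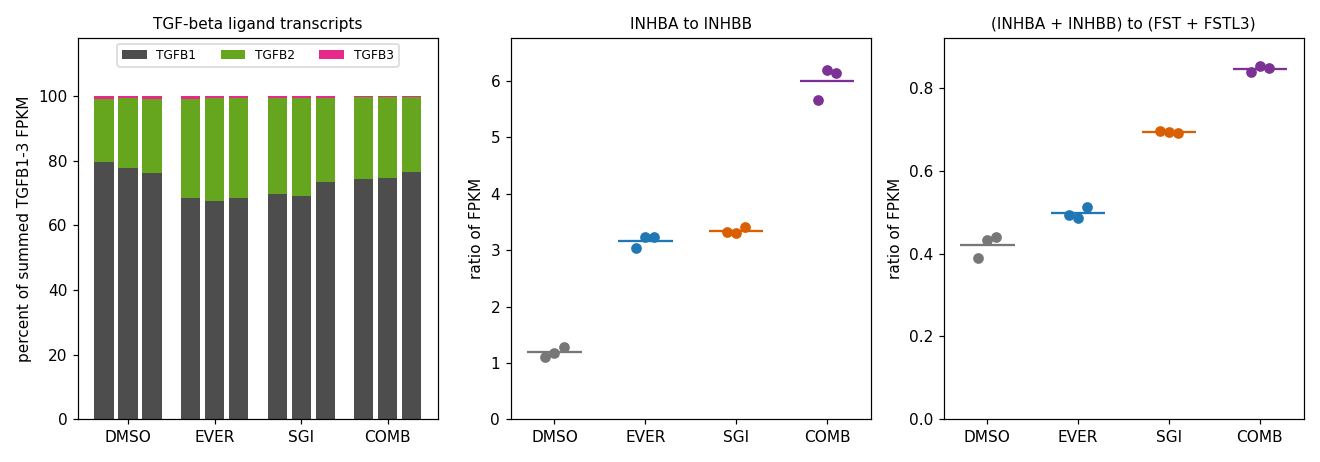
Ligand balance per library on the FPKM scale. The left panel stacks the percent of summed TGFB1, TGFB2 and TGFB3 FPKM in each of 12 libraries, with TGFB2 at 21.3% on average with DMSO and 31.1% with everolimus. The middle and right panels show the ratio of INHBA to INHBB and of activin ligand to antagonist transcripts, with a point per library and a line at the group mean (EVER, everolimus; SGI, SGI-1027; COMB, combination). Both ratios are highest in the 3 combination libraries.

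TGFB2, a ligand that needs betaglycan for efficient binding to TGFBR2, was higher with either drug and not with both. The records and the study's methods name different library kits, one of them stranded, and no strand setting of the counting, so it is not known if reads of the overlapping antisense gene are in its counts, as for INHBA. Its libraries read 123, 119 and 125 CPM with DMSO, 198, 204 and 199 with everolimus, 175, 170.2 and 174 with SGI-1027, and 114, 117 and 111 with the combination. Both single-drug groups lay above DMSO, and the 3 combination libraries lay below it. The log2 differences from DMSO were 0.71 ± 0.04 with everolimus and 0.50 ± 0.04 with SGI-1027, which add to 1.20, but -0.11 ± 0.04 with both. The combination thus lay 1.31 ± 0.05 below the sum of the single drugs, and 0.81 ± 0.04 below everolimus alone and 0.60 ± 0.04 below SGI-1027 alone. The small difference between combination and DMSO was no longer called at an adjusted p under 0.05 with upper-quartile scaling (-0.05), without DMSO replicate 3 (-0.08) or without combination replicate 3 (-0.09).

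TGFB1, per length the most abundant of the 4 ligand transcripts in every group, was lower with the combination and overlapped DMSO with either drug alone. It read 178, 151 and 147 CPM with DMSO, 157, 153 and 155 with everolimus, 145, 137 and 174 with SGI-1027, and 119, 123 and 128 with the combination. The highest readings of the DMSO and SGI-1027 groups came from the 2 libraries that stood apart. Against DMSO, the log2 differences were -0.04 ± 0.07 with everolimus, -0.07 ± 0.07 with SGI-1027 and -0.36 ± 0.07 under both drugs. Without those 2 libraries they were 0.05, -0.08 and -0.27. Without SGI-1027 replicate 3 alone, the SGI-1027 value was -0.17 and passed the threshold. The combination lay 0.26 ± 0.10 below the sum of the single drugs, with log2 values of -0.15 without SGI-1027 replicate 3 and -0.24 without both libraries that stood apart. This call was lost in 13 alternative settings, among them the fit without SGI-1027 replicate 3 and the fit with a replicate block.

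Counted per length, TGFB1 made up 77.8% ± 1.78 of the summed TGFB1, TGFB2 and TGFB3 FPKM with DMSO and TGFB2 made up 21.3% ± 1.78 (SD, n = 3). The TGFB2 share was 31.1% ± 0.616 with everolimus, 28.7% ± 2.33 with SGI-1027 and 24.5% ± 1.08 under both drugs. Each treated group lay above all DMSO libraries in this share, whose highest was 22.9%, and the lowest combination library was at 23.3%. The summed FPKM was 96.6 ± 9.08 with DMSO, 108 ± 0.583 with everolimus, 101 ± 8.85 with SGI-1027 and 78.8 ± 1.91 under both drugs, where it was lower than in any other library. In DMSO replicate 1 and SGI-1027 replicate 3, which stood apart, the sums were 107 and 111, the highest of their groups. Their TGFB2 shares, 19.4% and 26.0%, were the lowest of their groups. The means include both libraries. TGFB3 gave at most 1.01% of the sum in any library.

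TGFBR2, the type II receptor for TGF-beta, was lower by nearly the same amount in each treated group. It read 209, 211 and 216 CPM with DMSO, 180.2, 181 and 178 with everolimus, 186, 176 and 181 with SGI-1027, and 179, 179 and 185 with the combination. Each treated group lay below DMSO and the treated groups overlapped one another. Relative to DMSO its log2 values were -0.24 with everolimus, -0.23 with SGI-1027 and -0.23 under both drugs, each with an SE of 0.04. The single-drug values add to -0.47, so the combination lay 0.24 ± 0.05 above their sum.

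SMAD7, the inhibitory SMAD that the pathway induces, was higher in each treated group. It read 29.7, 26.5 and 27.8 CPM with DMSO, 36.2, 36.4 and 38.0 with everolimus, 37.0, 38.1 and 40.4 with SGI-1027, and 44.3, 47.3 and 45.3 with the combination. The combination lay above all other libraries, the single-drug groups overlapped each other, and DMSO lay below them. On the log2 scale, differences from DMSO were 0.40 ± 0.06, 0.46 ± 0.06 and 0.71 ± 0.06, and the sum of the single drugs was 0.86. The difference of -0.15 ± 0.08 from that sum was not called, except with upper-quartile scaling (-0.23) and without DMSO replicate 1 (-0.19).

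BAMBI, the pseudoreceptor, was likewise higher with either drug and not with both. It read 13.4, 13.6 and 14.5 CPM with DMSO, 17.6, 18.1 and 15.9 with everolimus, 17.4, 17.0 and 17.2 with SGI-1027, and 14.2, 14.3 and 13.7 with the combination. Either drug lay above DMSO, and the combination overlapped DMSO. Against DMSO, the log2 differences were 0.31 ± 0.07 with everolimus, 0.31 ± 0.07 with SGI-1027 and 0.03 ± 0.07 under both drugs, which lay 0.60 ± 0.10 below the sum of the single drugs.

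**Figure D2:**
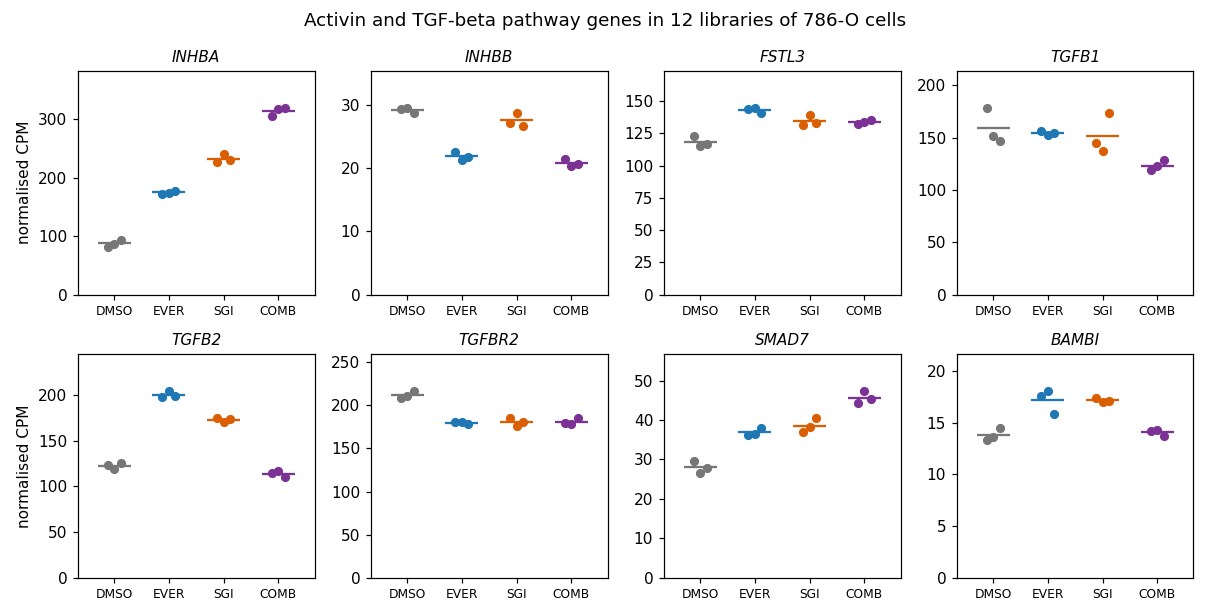
Normalised CPM of the 8 expressed genes in each of 12 libraries, on linear axes that start at 0. Points are libraries and lines are group means (EVER, everolimus; SGI, SGI-1027; COMB, combination). INHBA climbs from 87.4 CPM with DMSO to 315 CPM with the combination, whereas the combination libraries lie below those of DMSO for TGFB2 and overlap them for BAMBI, and SMAD7 is highest with both drugs.

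Placed side by side, the 8 tested genes split by how the combination compared with its parts. INHBA and SMAD7 were highest with both drugs, TGFB2 and BAMBI were high with either drug and near or below DMSO with both, and TGFB1 was lower with both and overlapped DMSO with one drug. FSTL3 and TGFBR2 lay on one side of DMSO under either drug and under both, and INHBB was low where everolimus was present. All comparisons with DMSO share the same 3 control libraries, so they are not independent of one another.

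**Figure D3:**
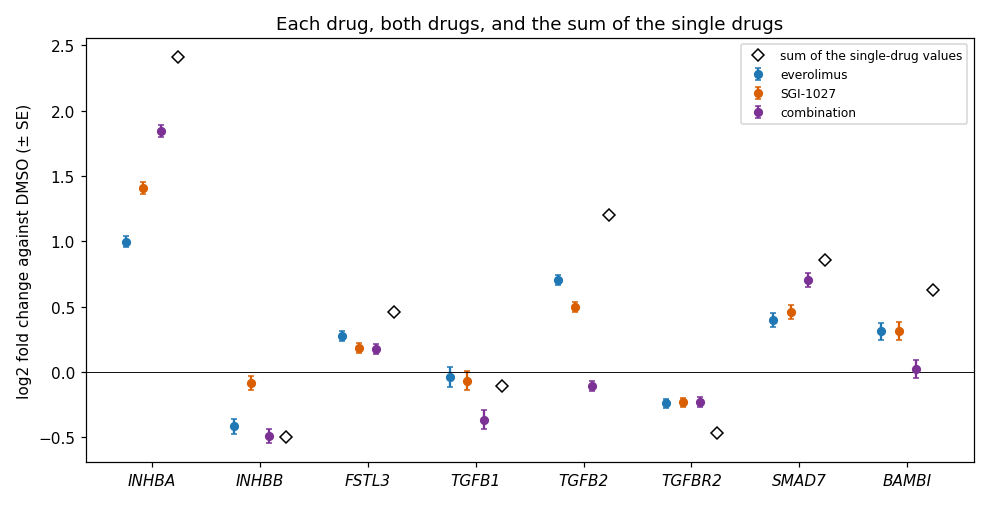
Log2 fold change of each gene against DMSO for the 3 treated groups, with bars of 1 SE from edgeR and 3 libraries per group. Diamonds mark the sum of the single-drug values. For TGFB2 the combination value of -0.11 stands 1.31 below a diamond at 1.20, and for INHBB the combination and the diamond nearly coincide.

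The number of genes past an adjusted p under 0.05 (quasi-likelihood test of edgeR, Benjamini-Hochberg values over 12841 genes) is given as a description, since these contrasts chose the genes. With everolimus against DMSO, 7 of the 8 were called (5 higher and 2 lower), while 56.4% of all tested genes were called, 27.2% as higher and 29.2% as lower. Of the genes called there, 48.2% were higher, and 60.7% with upper-quartile scaling. With SGI-1027 it was 6 of 8 (5 higher and 1 lower) against 62.6% of all genes (32% higher and 30.6% lower). With the combination it was 7 of 8 (3 higher and 4 lower) against 66.2% (32.8% higher and 33.4% lower). Comparing the combination with everolimus called 5 of 8 (2 higher and 3 lower) beside 39.3% of all genes (20.1% higher and 19.2% lower), and with SGI-1027 6 of 8 (2 higher and 4 lower) beside 19.6% (9.4% higher and 10.2% lower). For the interaction, the difference of the combination from the sum of the single drugs, 6 of 8 were called (5 below the sum and 1 above) beside 45.6% of all genes (22.1% below and 23.6% above). Libraries of the groups did not overlap for 7, 6 and 7 of the 8 genes with everolimus, SGI-1027 and the combination against DMSO, where 62.9%, 63.2% and 69.2% of all genes did not overlap. Against everolimus and SGI-1027, the combination did not overlap for 6 and 6 of the 8 genes, beside 54.2% and 34.6% of all genes.

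Under the cut-off used in the study, an unadjusted p under 0.05 and at least 1 log2 unit in either direction, none of the 8 genes was called with everolimus (4.79% of all tested genes). INHBA missed that cut-off at 0.999 and was past it with upper-quartile scaling (1.07), without DMSO replicate 3 (1.05) and, by less, without everolimus replicate 1 or 2, among other settings. It was called with SGI-1027 (7.33% of all) and with the combination (9.96% of all). TGFB2 was called for the interaction (5.76% of all), and none for the combination against everolimus (3.9%) or against SGI-1027 (1.64%). The median log2 difference of the 8 genes was 0.29 with everolimus, 0.25 with SGI-1027 and -0.04 under both drugs, and over all tested genes it was 0.00, 0.02 and 0.01.

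Between genes, levels were compared per length. With DMSO, TGFB1 had 75.3 FPKM, FSTL3 47.1, TGFBR2 31.6, TGFB2 20.5, INHBA 10.7, INHBB 9.05, BAMBI 8.14 and SMAD7 7.54. BAMBI (7.95 to 8.50) and SMAD7 (7.11 to 8.08) overlapped between libraries, and the other neighbours did not. With the combination INHBA had 39.2 FPKM, behind TGFB1 at 59.2 and FSTL3 at 54.0. TGFBR2 had 27.4 FPKM there, TGFB2 19.3, SMAD7 12.5, BAMBI 8.41 and INHBB 6.54. The most abundant of the 8 thus remained TGFB1 in both groups, and INHBB came last with the combination.

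For each of the 8 genes, the genes with the most similar profile were sought by Pearson's r of log2 CPM over the 12 libraries, among 11464 genes. These are descriptions across libraries that share the same 4 groups. INHBA was most like HLA-B (r = 0.997), INHBB most like ATP2B4 (r = 0.964) and ALDH1B1 (r = 0.962), and FSTL3 most like ATG13 (r = 0.974) and P3H1 (r = 0.967). TGFB1 was most like BCL9 (r = 0.96) and SRF (r = 0.954), and TGFB2 most like MAGED1 (r = 0.984) and GFRA1 (r = 0.972). TGFBR2 was most like PREB (r = 0.987) and ATAD2 (r = 0.986), and SMAD7 most like NPC2 (r = 0.992) and MGAT4B (r = 0.9885). BAMBI was most like CLIC4 (r = 0.965) and ITGB8 (r = 0.958), an integrin subunit of the lists described next. MAGED1, for example, had 315 CPM with DMSO, 455 with everolimus, 427 with SGI-1027 and 297 under both drugs.

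The rest of the pathway was read from 6 lists of 105 other genes, of which 99 were in the table and 75 were tested. The other 6, NODAL, GDF1, DCN, WFIKKN2, CER1 and HAMP, were not analysed here. Against DMSO, 31 rose and 14 fell with everolimus, 33 rose and 9 fell with SGI-1027, and 33 rose and 22 fell with the combination (edgeR, adjusted p under 0.05). These are 60%, 56% and 73.3% of the 75, beside the 56.4%, 62.6% and 66.2% over all genes. For the interaction, 9 lay above the sum of the single drugs and 29 below it, which is 50.7% of the 75 beside 45.6% of all genes. With upper-quartile scaling the split with everolimus was 36 higher and 9 lower.

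Target genes of SMAD2 and SMAD3 had the highest share of called members in each treated group (84.2%, beside 56.4%, 62.6% and 66.2% of all genes), with 13 of 19 higher and 3 lower under everolimus, 15 higher and 1 lower under SGI-1027, and 12 higher and 4 lower under the combination. Their median log2 differences were 0.46, 0.54 and 0.46. CCN2, a matricellular growth factor, rose by 1.22 ± 0.07 on the log2 scale with the combination (edgeR, adjusted p = 1.53e-11). ANGPTL4, an inhibitor of lipoprotein lipase, rose by 3.24 ± 0.13 (edgeR, adjusted p = 2.67e-13), from 2.82 to 26.6 CPM. With everolimus alone ANGPTL4 was at 2.96 CPM, with SGI-1027 alone it was at 7.02 CPM, and the combination lay 1.84 ± 0.20 above the sum of the single drugs (edgeR, adjusted p = 6.68e-07). SNAI1, a transcription factor of epithelial-mesenchymal transition, fell by 1.28 on the log2 scale with the combination (edgeR, adjusted p = 3.57e-08). FN1, the gene of fibronectin, rose by 0.38 ± 0.04 with the combination (edgeR, adjusted p = 5.83e-08), by 0.46 with everolimus (adjusted p = 1.03e-08) and by 0.68 with SGI-1027 (adjusted p = 3.7e-11). In this list 11 of 19 were called below the sum of the single drugs and 3 above it. That is 73.7% of the list, beside 45.6% of all tested genes (22.1% below and 23.6% above).

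Of the 6 tested target genes of SMAD1 and SMAD5, none rose with SGI-1027 or the combination, while 3 and 4 of them fell, and with everolimus 1 rose and 3 fell. These are 50%, 66.7% and 66.7% of the list in that order, beside 62.6%, 66.2% and 56.4% of all tested genes. Their median log2 differences were -0.20 with everolimus, -0.42 with SGI-1027 and -0.60 under both drugs. ID1, an inhibitor of basic helix-loop-helix factors that BMP signalling induces, had 103, 93.7 and 91.1 CPM with DMSO, and 40.9, 39.2 and 33.4 CPM with the combination. It fell by 1.35 on the log2 scale there (edgeR, adjusted p = 4.27e-12), by 0.94 with SGI-1027 (adjusted p = 7.18e-10) and by 0.21 with everolimus (adjusted p = 0.00809). ID3 fell by 0.96 with the combination (edgeR, adjusted p = 7.5e-11) and by 0.90 with SGI-1027, and was at -0.02 with everolimus.

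ATOH8, a further BMP target, rose by 0.77 with everolimus (edgeR, adjusted p = 7.54e-05) and fell by 0.87 with the combination (adjusted p = 3.81e-05). ID2 fell by 0.32 with the combination (edgeR, adjusted p = 0.000725). SMAD9, one of the SMADs of this branch, fell by 1.48 on the log2 scale, from 2.64 to 0.942 CPM (edgeR, adjusted p = 1.11e-05).

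Among the other ligands, 9 of the 22 listed genes were tested, and 2 rose and 5 fell with the combination (77.8%, beside 66.2% of all genes). TGFB3 had 3.94, 2.45 and 3.53 CPM with DMSO, 4.27, 3.22 and 2.46 with everolimus, 2.32, 2.09 and 2.23 with SGI-1027, and 1.146, 0.928 and 1.10 with the combination. It fell by 1.64 on the log2 scale with the combination (edgeR, adjusted p = 5.01e-06), and the combination lay 1.07 below the sum of the single drugs (adjusted p = 0.00929). BMP8B rose by 1.47 ± 0.12 (edgeR, adjusted p = 8.3e-09) and GDF15, a stress-induced ligand, by 0.49 ± 0.13 (adjusted p = 0.0027). BMP4 fell by 0.55 (edgeR, adjusted p = 0.0253), a call that was lost without DMSO replicate 1, DMSO replicate 2 or combination replicate 2 (-0.37 without the last).

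Of 12 tested antagonists and proteins of latency or activation, 8 rose and 1 fell with everolimus, 6 rose and 1 fell with SGI-1027, and 6 rose and 4 fell with the combination (75%, 58.3% and 83.3%, beside 56.4%, 62.6% and 66.2% of all genes). LTBP2, a matrix protein of the latent TGF-beta binding family, rose by 1.73 ± 0.05 with the combination (edgeR, adjusted p = 8.4e-15), and LTBP3, which binds latent TGF-beta, by 0.92 ± 0.08 (adjusted p = 6.54e-09). NOG, the BMP antagonist noggin, fell by 0.73 with everolimus (edgeR, adjusted p = 9.48e-06), and rose by 0.46 with SGI-1027 (adjusted p = 0.000404) and by 0.92 with the combination (adjusted p = 8.98e-08). ITGB6, whose integrin activates latent TGF-beta, read 30.8, 30.1 and 30 CPM with DMSO, 39.6, 41.1 and 38.7 with everolimus, and 18.0, 17.9 and 17.6 with the combination. It rose by 0.39 with everolimus (edgeR, adjusted p = 8.92e-06) and fell by 0.77 with the combination (adjusted p = 2.08e-09).

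THBS1, the gene of thrombospondin 1, another activator of latent TGF-beta, was at 2321 CPM with DMSO, 3655 with everolimus, 4071 with SGI-1027 and 2650.3 under both drugs. Its combination value lay 1.27 ± 0.05 below the sum of the single drugs (edgeR, adjusted p = 9.28e-12). In this list 9 of 12 were called below that sum and 1, NOG, above it. That is 83.3% of the list, beside 45.6% of all tested genes (22.1% below and 23.6% above).

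Among 11 tested receptors, 6 rose and 1 fell with the combination (63.6%, beside 66.2% of all genes). ACVR2B, an activin type II receptor, rose by 0.91 ± 0.07 (edgeR, adjusted p = 4.44e-09), from 9.73 to 18.2 CPM, and rose by 0.76 with each drug alone. TGFBR3, the co-receptor betaglycan, rose by 0.92 ± 0.11 with the combination (edgeR, adjusted p = 8.66e-07) and fell by 0.39 with everolimus (adjusted p = 0.0111). BMPR2 rose by 0.33 ± 0.05 (edgeR, adjusted p = 1.41e-05) and TGFBR1, the type I partner of TGFBR2, by 0.28 ± 0.08 (adjusted p = 0.00509). ACVRL1, with a mean of 18.8 counts, was outside the rule for named genes and was named after its values were seen. It had the largest log2 value of the list, 3.03 ± 0.54, and 3.02 ± 0.54 with SGI-1027 alone. Its DMSO libraries had 1 to 7 counts each, near the 3 counts that a reading of 0 still allows, so the size of these values is uncertain.

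Of the 18 SMADs and intracellular regulators, 7 rose and 4 fell with the combination (61.1%, beside 66.2% of all genes), with a median log2 difference of 0.03. NEDD4L and SMURF2, ubiquitin ligases that target SMADs and receptors, rose by 0.52 ± 0.06 and 0.48 ± 0.06 (edgeR, adjusted p = 5.77e-07 and 4.8e-07). STRAP, which cooperates with SMAD7 at the receptor, fell by 0.51 (edgeR, adjusted p = 3.12e-09).

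**Figure D4:**
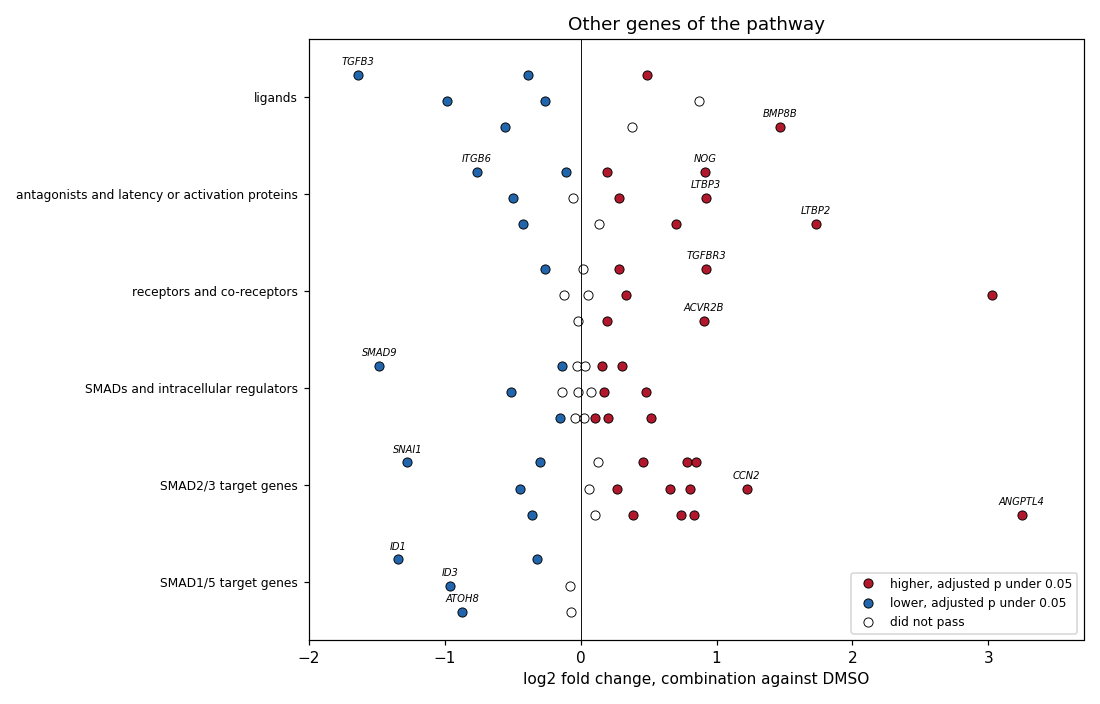
Log2 fold change of 74 of the 75 tested genes of 6 pathway lists, combination against DMSO, with one point per gene and the vertical offset within a list only separating points. Filled points passed an adjusted p under 0.05 in edgeR (red, higher; blue, lower), and open points did not. ANGPTL4 lies far to the right among SMAD2/3 targets, and all 4 called SMAD1/5 targets lie left of 0.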

How the data were processed

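Libraries of 786-O cells from 4 groups (3 each) were analysed by group, as the sample records label them. The authors deposited raw counts per gene symbol, which are not normalised, and FPKM values for the same genes and libraries. In the deposited tables each FPKM equals the count divided by the library total and a whole gene length, checked in 11857 genes with at least 50 counts (tolerance 0.01 base). The submitters' processing notes name the mouse build GRCm38 (mm10), although 16830 of the 17085 symbols match human genes, so gene positions were taken only from RefSeq promoters on GRCh38.p14. The sample records name a SMARTer library kit and the study's methods a TruSeq Stranded kit, a conflict that could not be settled. The aligner, counting program and strand setting of the counting are not given in the sources used here. If strand was not used, reads of TGFB2 and TGFB2-AS1, or of INHBA and its antisense gene, cannot be told apart.

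The count analysis used edgeR 4.0.16 under R 4.3.3 (filterByExpr, TMM, 1 quasi-likelihood fit of all 12 libraries, prior count 0.125). Of 17085 genes, 12841 were tested and 4244 were not. A call is a Benjamini-Hochberg adjusted p under 0.05 over all tested genes, and standard errors were derived from the fold change and its F statistic. The 12 libraries with 37046231 to 41516976 counts gave a precision set mainly by the spread of 3 libraries per group. Genes of the lists were named if they had an adjusted p under 0.05 with the combination, a mean of at least 50 counts and 1 of the 4 largest changes of their list, plus FN1 and THBS1. Some genes that these rules and the marker list name are not reported here, although the list counts include them. Profile likeness used genes with the same mean count. Alternatives were DESeq2 1.42.0, upper-quartile scaling, other filters, limma 3.58.1 on log2(FPKM + 1) and log2(FPKM + 0.1), fits of the contrasted groups only, a replicate block, and leaving out libraries. The procedure was tested on simulated counts in which few genes changed, and only in the combination group. No library stood apart there, so the test does not cover these data in those respects. The 9 genes, the lists and the tests were chosen with earlier results of these data known.

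Same-numbered libraries of different groups did not deviate together (18 pairs, r from -0.341 to 0.0871), so numbers were not used as pairs.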

Additional observations from a re-analysis of the deposited data

Results flagged for a closer look

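Drug effects that differed with the presence of the other drug are collected here as values. The log2 difference of the SGI-1027 effect with everolimus from that without it (edgeR interaction term, adjusted p under 0.05) was below 0 for THBS1 (-1.27), ITGB6 (-1.27), ATOH8 (-1.32), TGFB3 (-1.07), BMP8B (-0.80), FN1 (-0.76), LTBP2 (-0.76), ACVR2B (-0.61), BMPR2 (-0.49) and LTBP3 (-0.29). It was above 0 for ANGPTL4 (1.84), NOG (1.19), TGFBR3 (1.13), ID2 (0.38) and STRAP (0.18). The LTBP3 call was lost in 10 alternative settings (-0.17 without SGI-1027 replicate 3), that of TGFB3 in 2 (-0.30 on log2(FPKM + 1), with and without a filter) and that of STRAP in 2 (0.11 with upper-quartile scaling, 0.14 without everolimus replicate 3).

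In 3 of the 8 tested genes a drug effect had opposite directions with and without the other drug in every library. The share of all genes with such a reversal was not computed. For these 3 the interaction passed an adjusted p under 0.05 in edgeR (TGFB2 -1.31, BAMBI -0.60, FSTL3 -0.28), as for 45.6% of all tested genes. This is no independent test because these contrasts chose the genes. SGI-1027 went with higher TGFB2 when given alone and with lower TGFB2 when added to everolimus (-0.81), and everolimus likewise when added to SGI-1027 (-0.60). BAMBI showed the same for both drugs, at -0.29 for each drug added to the other. FSTL3 was higher with SGI-1027 alone and lower when SGI-1027 was added to everolimus (-0.094), a difference that was not called in the main fit. Groups of 3 libraries are too small for a test of single outlying libraries.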

How the results depend on the processing

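Under the alternatives that kept the call rule, counts of called genes stayed within 1.5 times their values and no value that was called changed sign. With a minimum absolute log2 fold change of 1, the calls among the 8 genes against DMSO were 0 (everolimus), 1 (SGI-1027) and 1 (combination), those of the combination 0 against everolimus and 0 against SGI-1027, and that of the interaction 1, with the unadjusted and the adjusted p. Among the 75 listed genes they were, in the same order, 3, 5, 10, 9, 2 and 10 with the unadjusted p and 2, 5, 10, 9, 2 and 10 with the adjusted p. Of all tested genes, 4.79%, 7.33%, 9.96%, 3.9%, 1.64% and 5.76% were called in that order with the unadjusted p. The requirement of a fold change removes small differences by construction.

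Leaving out 1 library at a time gave, in this order, 7, 6 to 7, 6 to 7, 5 to 6, 6 and 5 to 7 calls among the 8 genes. Among the 75 listed genes the ranges were 38 to 46, 41 to 44, 48 to 58, 39 to 43, 25 to 32 and 35 to 42. Without DMSO replicate 1 and SGI-1027 replicate 3 together, a setting chosen after seeing the data, the counts among the listed genes were 48, 45, 55, 48, 34 and 41. Shares of all genes called are not given for these fits or for the replicate block.

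The replicate block gave 7, 6, 7, 5, 6 and 5 calls among the 8 genes and 53 for the combination among the listed genes. It ended the interaction call of TGFB1 (-0.26). With 0 of 18 same-numbered pairs above a correlation of 0.1, the numbers do not mark pairs. The FSTL3 difference between combination and everolimus was called with DESeq2 (-0.10), upper-quartile scaling (-0.11), fits of these 2 groups and without SGI-1027 replicate 3. Upper-quartile scaling shifted the median of all genes by 0.07 with everolimus on the log2 scale. In FPKM in place of CPM the order of the group means was the same for 6 of the 8 genes, and groups that overlap changed places in FSTL3 and BAMBI. Fits of only the contrasted groups gave no interaction value.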
